A study of Mus musculus with 96 samples.

Results

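The cell cycle and DNA replication genes described here are 36 named genes of proliferation, replication, nucleotide supply, chromatin assembly and mitosis, taken from 22709 genes in the deposited table of normalized expression. They were chosen by name, and all 36 were found. Their transcripts were followed as a trace of dividing cells in 2 brain regions, over 96 libraries in 16 groups.

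The libraries were bulk RNA-seq of mouse hippocampus and prefrontal cortex, 48 each, from stranded mRNA kits. In each tissue the 8 groups crossed prenatal treatment (maternal immune activation, MIA, or saline injection), inhibitor (control or Plexxikon, that is PLX5622, an inhibitor of the receptor CSF1R on which microglia depend, here PLX) and sex. Each group held 6 libraries, except that the group of MIA control females held 7 and that of MIA control males 5. The question put by the design was what MIA changes, and what an inhibitor meant to target and renew microglia changes on top of it. The labels give no strain, age, immune agent, dose or time of injection, and no animal or litter, so p-values measure the spread between these libraries, which may in part be technical.

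Depth was between 22.2 M and 26.7 M reads per hippocampal library and between 22.8 M and 25.9 M per cortical library. Values below are the deposited signal, which is reads divided by a factor for each library (0.898 to 1.11). Tissue labels were checked against markers: 7 of 8 hippocampal subfield genes were higher in hippocampus and 6 of 8 cortical layer genes lower, with summed layer signal of 3981 to 5711 in hippocampus against 10034 to 13326 in prefrontal cortex. Choroid plexus and ependymal genes had a summed signal of 1023 to 96295 in hippocampal libraries and of 200 to 583 in cortical ones. Genes of neural stem cells and immature neurons summed to 4308 to 5923 in hippocampal libraries and to 3395 to 10764 in cortical ones. Of these, Eomes ran from 3.22 to 679 in cortical libraries and from 4.10 to 31.2 in hippocampal ones. The source of this spread was not tested. In 14 hippocampal libraries the share of signal in 186 ribosomal protein and oxidative phosphorylation genes was 1.25% to 1.43%, and in the other 34 it was 0.885% to 1.09%. In prefrontal cortex 16 libraries had 1.16% to 1.39% and 32 had 0.850% to 1.06%, and 14 labels were on the higher side in both tissues. The libraries on that side are called high-share libraries below. They were unevenly spread: in hippocampus they were 12 of 24 control and 2 of 24 PLX libraries, in prefrontal cortex 14 controls and 2 PLX. A result that rests on them is given 3 ways: as designed, with their status as a covariate (called the share term), and without them.

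A dividing cell licenses its origins of replication with the MCM helicase in G1, copies its DNA in S phase at forks built around the sliding clamp PCNA, packs the new DNA into nucleosomes, and separates the chromosomes in mitosis. Cyclins and their kinases time these steps, and most of the genes are switched on by E2F factors before S phase or by the MuvB complexes, which bind a cell cycle homology region (CHR), before mitosis. In the postnatal brain, division is known mainly from oligodendrocyte precursors, from neural progenitors of the dentate gyrus and the ventricle wall, and from microglia when they repopulate. Some of the genes also serve DNA repair or have roles in neurons that no longer divide.

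The promoters of 30 of the 36 genes were matched in RefSeq (mouse build GRCm38.p6; the deposited table was made on another build, and no coordinates are taken from it). The 250 bases upstream of each start were searched on both strands for E2F forms (TTTCCCGC or TTTGGCGC or TTTGCCGC or TTTCGCGC), for CHR forms (TTTGAA or TTCGAA) and for the CCAAT box. Matches of different forms can overlap. An E2F form was present in 6 of the 30 (20%) and in 1.91% of 27025 promoters of all genes. A CHR form was present in 11 (36.7%, against 17.4%) and a CCAAT box in 24 (80.0%, against 34.5%). Among the 9 matched members that were higher in hippocampus than in prefrontal cortex 3 held an E2F form and 2 a CHR form, and among the 16 that were lower 3 and 7 did. The sequences below are examples of 3 kinds of result, chosen with the values known: Top2a and Ccnb1 were lower in hippocampus, Mcm6 was higher there, and Chaf1a was the member called in a single PLX comparison. Each runs 5′ to 3′ on the gene's strand and ends just before its start, with matches in capitals. That of Top2a lies at chr11:99024190-99024439 (minus strand), of Ccnb1 at chr13:100786487-100786736 (minus), of Mcm6 at chr1:128359706-128359955 (minus) and of Chaf1a at chr17:56040166-56040415 (plus).
Top2a: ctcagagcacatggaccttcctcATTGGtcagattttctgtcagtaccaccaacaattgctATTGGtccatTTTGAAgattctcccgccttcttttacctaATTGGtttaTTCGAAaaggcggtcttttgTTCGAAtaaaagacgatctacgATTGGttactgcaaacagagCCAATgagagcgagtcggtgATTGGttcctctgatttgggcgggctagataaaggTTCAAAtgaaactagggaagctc
Ccnb1: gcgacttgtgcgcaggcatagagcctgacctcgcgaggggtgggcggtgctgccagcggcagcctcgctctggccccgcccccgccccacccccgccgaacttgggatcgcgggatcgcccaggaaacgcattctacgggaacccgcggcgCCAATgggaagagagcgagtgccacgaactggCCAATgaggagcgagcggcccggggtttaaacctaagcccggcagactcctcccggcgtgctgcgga
Mcm6: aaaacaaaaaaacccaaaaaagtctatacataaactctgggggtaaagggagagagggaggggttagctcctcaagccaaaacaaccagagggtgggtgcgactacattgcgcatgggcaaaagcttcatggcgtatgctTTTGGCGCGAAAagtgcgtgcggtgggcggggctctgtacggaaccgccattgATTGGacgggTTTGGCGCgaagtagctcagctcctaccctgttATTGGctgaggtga
Chaf1a: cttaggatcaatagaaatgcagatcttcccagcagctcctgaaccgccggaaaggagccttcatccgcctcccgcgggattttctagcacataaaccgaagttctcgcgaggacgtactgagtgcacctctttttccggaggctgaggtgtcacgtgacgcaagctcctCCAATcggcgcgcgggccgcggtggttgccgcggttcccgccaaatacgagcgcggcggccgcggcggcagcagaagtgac
Top2a had 6 CCAAT boxes, 4 CHR forms and no E2F form. Mcm6 had 3 E2F forms, partly overlapping, and 2 CCAAT boxes. Ccnb1 showed 2 CCAAT boxes and Chaf1a 1, with neither of the other motifs in this window. A match is a description of the letters and not a measured binding site.

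Most members were present at low levels. Median signal over the 48 libraries ran from 5.74 to 435 in hippocampus and from 7.98 to 463 in prefrontal cortex, and the median coefficient of variation over members was 18.7% and 17.9%. Per kilobase of exon, which allows genes to be compared, the sliding clamp Pcna was highest in both tissues (median 287 in hippocampus and 301 in prefrontal cortex), followed by Ccne1, a cyclin that drives entry into S phase (144 and 194), and Rrm1, the large subunit of ribonucleotide reductase (104 and 116). The lowest per kilobase were the mitotic kinase Cdk1 (1.75 and 2.29) and the spindle checkpoint kinase Bub1 (1.79 and 2.34). By role, the median per kilobase was 80.4 in hippocampus and 85.8 in prefrontal cortex for the 3 genes of DNA synthesis, and 31.9 and 32.2 for the 9 licensing and helicase genes. It was 14.1 and 13.3 for the 5 mitotic kinases and checkpoint genes, and 7.61 and 10.5 for the 4 cyclins and kinase of S phase to mitosis. The replication machinery thus had higher medians than mitosis in both tissues.

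A gene was tested where 5 or more libraries reached a signal of 10. All 36 members passed in prefrontal cortex and in the fit of both tissues together. In hippocampus 33 passed. Ccnb1, the mitotic cyclin B (3 libraries at 10 or more), Aurkb, the Aurora kinase of the centromere (3 libraries), and Bub1 (1 library) did not, and their changes within hippocampus were not tested. Overlapping annotation makes some members less certain, because the sources used here do not say how reads were counted or whether strand was used. Of the 36, 12 overlap another gene, 10 of these a gene in the table (Mcm7, Cdc45, Gins2, Fen1, Chaf1a, Recql4, Ccne2, Cdk2, Ccna2 and Aurka). A pseudogene under the member's own name is annotated for 4 (Pcna, Tyms, Ccnb1 and Ccnb2). Copies under other names were not searched for, so other members may have them too.

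Hippocampus and prefrontal cortex differed in most members and in both directions. Averaged over the 8 groups of each tissue, 12 members were higher and 19 lower in hippocampus (limma, Benjamini-Hochberg adjusted p under 0.05). This is 31 of 36, beside 65.9% of all 20620 genes tested, of which 35.3% were higher and 30.6% lower. Among the 19, Ccnb1, Bub1 and Aurkb passed the joint filter only through prefrontal cortex, where they were higher. The filter thus favoured their direction, and it adds no support to the count. The members' median log2 difference was -0.13 and that of all genes 0.02. Helicase subunits were among the higher ones, whereas cyclins A2, B1 and B2, Cdk1 and Top2a were lower. The library factors were set by the authors, and no control that would fix the level between tissues was used here. In bulk tissue fewer cells of a type and less RNA per cell cannot be told apart.

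**Figure D1:**
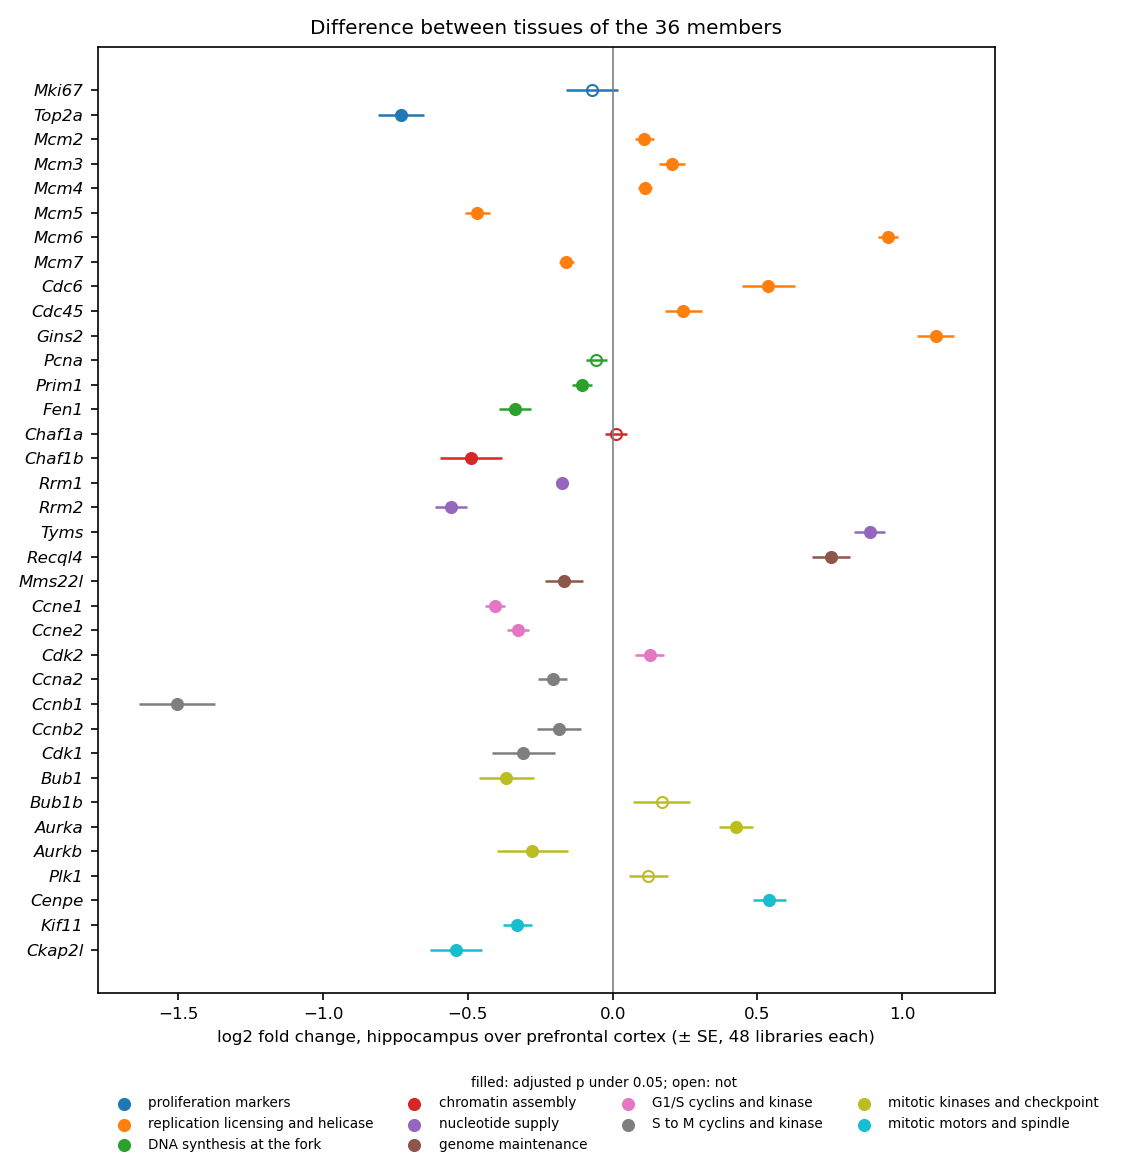
Log2 difference of hippocampus minus prefrontal cortex for the 36 members (points, with bars of 1 standard error; joint limma fit of 96 libraries), grouped by role. Gins2, Mcm6, Tyms and Recql4 lie farthest to the positive side and Ccnb1 and Top2a farthest to the negative side.

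Of the 9 licensing and helicase genes, 7 were higher in hippocampus and 2 lower. Mcm6, a subunit of the replicative helicase, had a signal of 355 to 582 (median 430) in hippocampus and 171 to 398 (median 230) in prefrontal cortex, so the 2 ranges overlapped only at their ends. The log2 difference was 0.95 ± 0.04 (SE; limma adjusted p = 6.33e-42), or 1.93-fold. Gins2, a subunit of the GINS complex that holds the active helicase together, ran from 27.1 to 64.1 (median 42.8) against 9.79 to 35.5 (median 19.9). It differed by 1.12 ± 0.06 (limma adjusted p = 3.26e-29), the largest positive difference among the members. Its overlapping neighbour Gse1 was also higher (0.64 ± 0.07). Cdc6, which loads the helicase, was higher by 0.54 ± 0.09 and Cdc45, its partner in the active form, by 0.24 ± 0.06. The other helicase subunits moved little and not all one way: Mcm3 by 0.20, Mcm4 by 0.11 and Mcm2 by 0.11 ± 0.03 (limma adjusted p = 0.00184), while Mcm7 was lower by -0.16 and Mcm5 by -0.47 ± 0.04 (limma adjusted p = 2.56e-17). Mcm5 had a signal of 78.9 to 170 in hippocampus (median 110) and 111 to 213 in prefrontal cortex (median 151). The MCM proteins form a single ring, but their transcripts did not differ between tissues by a common amount.

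In nucleotide supply, 1 gene was higher in hippocampus and 2 lower. Tyms, thymidylate synthase, ran from 43.4 to 89.3 (median 64.9) in hippocampus and from 16.2 to 48.3 (median 35.3) in prefrontal cortex, a difference of 0.89 ± 0.05 (limma adjusted p = 1.94e-27). Both subunits of ribonucleotide reductase were lower, Rrm2 by -0.56 ± 0.06 and Rrm1 by -0.17 ± 0.02. Of the 2 genome maintenance genes the helicase Recql4, which acts at replication origins and in repair, was higher (39.6 to 169, median 80.1, against 31.0 to 70.0, median 50.5). Its difference was 0.75 ± 0.07 (limma adjusted p = 3.35e-18), while its overlapping neighbours Lrrc14 and Mfsd3 were lower by -0.09 and -0.16. Mms22l, which helps repair stalled forks, was lower by -0.17 ± 0.07. Among the genes of DNA synthesis Fen1, the nuclease that trims Okazaki fragments, was lower by -0.34 and the primase Prim1 by -0.11. Pcna was not called (-0.06 ± 0.04, limma adjusted p = 0.156).

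Genes of later phases differed in both directions. All 4 cyclins and kinase of S phase to mitosis were lower in hippocampus, though for Ccnb1 the filter favoured that direction. Ccnb1 had a signal of 0.964 to 13.1 in hippocampus (median 5.74) and 6.27 to 33.6 in prefrontal cortex (median 15.9), a log2 difference of -1.50 ± 0.13 (limma adjusted p = 6.15e-18) on the scale of log2(signal + 1). It reached a signal of 10 in 3 hippocampal and 42 cortical libraries, so it was tested only through the tissue where it was higher. Differences were -0.31 for Cdk1, -0.21 for the S phase cyclin Ccna2 and -0.19 for the cyclin Ccnb2. The spindle motor Kif11 was lower by -0.33 and the spindle protein Ckap2l by -0.54, but the kinetochore motor Cenpe was higher by 0.54 ± 0.06. Of the 5 mitotic kinases, Aurka, the Aurora kinase of the spindle poles, was higher by 0.42, Bub1 was lower by -0.37 and Aurkb by -0.28 (limma adjusted p = 0.0391), whereas Plk1 (0.12 ± 0.07) and the checkpoint gene Bub1b (0.17 ± 0.10) were not called. Bub1 and Aurkb were also tested only through prefrontal cortex, so the filter favoured their direction too. With Ccnb1, Bub1 and Aurkb set aside, Cdk1, Ccna2, Ccnb2, Kif11 and Ckap2l were lower, and Aurka and Cenpe higher. Before S phase, both E cyclins were lower (Ccne1 by -0.41, Ccne2 by -0.33), and their kinase Cdk2 was higher by 0.13.

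The 2 usual markers of proliferation differed from each other. Top2a, the topoisomerase that untangles chromosomes, ran from 20.1 to 90.1 in hippocampus (median 40.7) and from 34.3 to 99.7 in prefrontal cortex (median 66.8), and was lower by -0.73 ± 0.08 (limma adjusted p = 1.40e-13). Mki67, the gene of the Ki-67 antigen, ran from 35.7 to 149 (median 95.6) and from 42.4 to 137 (median 99.1), which largely overlapped (-0.07 ± 0.09, limma adjusted p = 0.491). Chaf1a and Chaf1b are subunits of the chromatin assembly factor that deposits histones behind the fork. Chaf1a hardly differed in median (110 against 112, a difference of 0.01 ± 0.04, limma adjusted p = 0.810), and Chaf1b was lower by -0.49 ± 0.11. Chaf1b rests on low values, with medians of 6.22 and 9.15 and a signal of 10 in only 7 hippocampal and 20 cortical libraries. With the share term 28 members were called (63.7% of genes), and without the high-share libraries 28 (61.5%). The 3 calls lost with the term were Aurkb, Ccnb2 and Cdk2.

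Other genes of the cell cycle were also called in both directions. Of 115 tested outside the members, 29 were higher and 48 lower in hippocampus, with a median of -0.06. Mitotic genes outside the members were lower in 23 and higher in 5 of 40, and replication genes lower in 17 and higher in 13 of 45, beside 30.6% of all genes lower and 35.3% higher. The 5 with the smallest p were Racgap1, which acts in cytokinesis (-1.59), E2f1 (-1.50), the centromere protein Incenp (-0.79), the single-strand binding protein Rpa1 (0.51) and the kinase Melk (-2.35). Markers of cells that can divide differed too: 7 of 8 oligodendrocyte precursor genes were higher in hippocampus, 3 of 11 genes of neural stem cells and immature neurons were higher and 5 lower, and 2 of 10 microglial genes were lower. Choroid plexus and ependymal genes were higher in 8 of 8. Their part in the members' differences was not tested.

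PLX, averaged over sex and prenatal treatment, moved members in both directions. In hippocampus 8 of 33 members passed (4 up, 4 down; limma), beside 40% of all 19938 genes tested (20.8% up, 19.2% down). The members' median was -0.03 and that of all genes -0.00. In prefrontal cortex 9 of 36 passed (2 up, 7 down), beside 37.8% of 19841 genes (19.7% up, 18.1% down), with a median of -0.04. In both tissues 4 members passed: Mki67 was higher and Pcna, Ccne1 and Mcm5 lower with PLX. The share of all genes called in both tissues was not taken, so this count is no result about the members. The tissues are also not independent here, since 14 labels were high-share in both. With the share term, 1 member was called in hippocampus and 0 in prefrontal cortex.

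Of the members called in hippocampus, Recql4 had the largest change. Its signal was 39.6 to 84.6 (median 76.1) in saline control females and 79.5 to 169 (median 98.6) with PLX, and 41.4 to 129 (median 58.2) in MIA control females and 73.8 to 127 (median 96.4) with PLX. In saline males it was 62.2 to 130 (median 69.6) and with PLX 77.7 to 134 (median 114). The 5 MIA control males had 72.0, 91.3, 57.8, 54.9 and 62.2, and the PLX males 65.6 to 125 (median 89.4). The PLX median was the higher one in each of the 4 pairs, and the ranges of each pair overlapped. The averaged log2 fold change was 0.54 ± 0.11 (limma adjusted p = 0.000788), or 1.45-fold. It was 0.59 ± 0.12 with the term (limma adjusted p = 0.0207) and 0.56 ± 0.13 after dropping the high-share libraries (limma adjusted p = 0.128). Its overlapping neighbours moved the other way (Lrrc14 -0.11, Mfsd3 -0.19). In prefrontal cortex Recql4 was not called (0.07 ± 0.07, limma adjusted p = 0.424), and the difference between the tissues in the PLX effect was 0.47 ± 0.13 (limma adjusted p = 0.945).

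**Figure D2:**
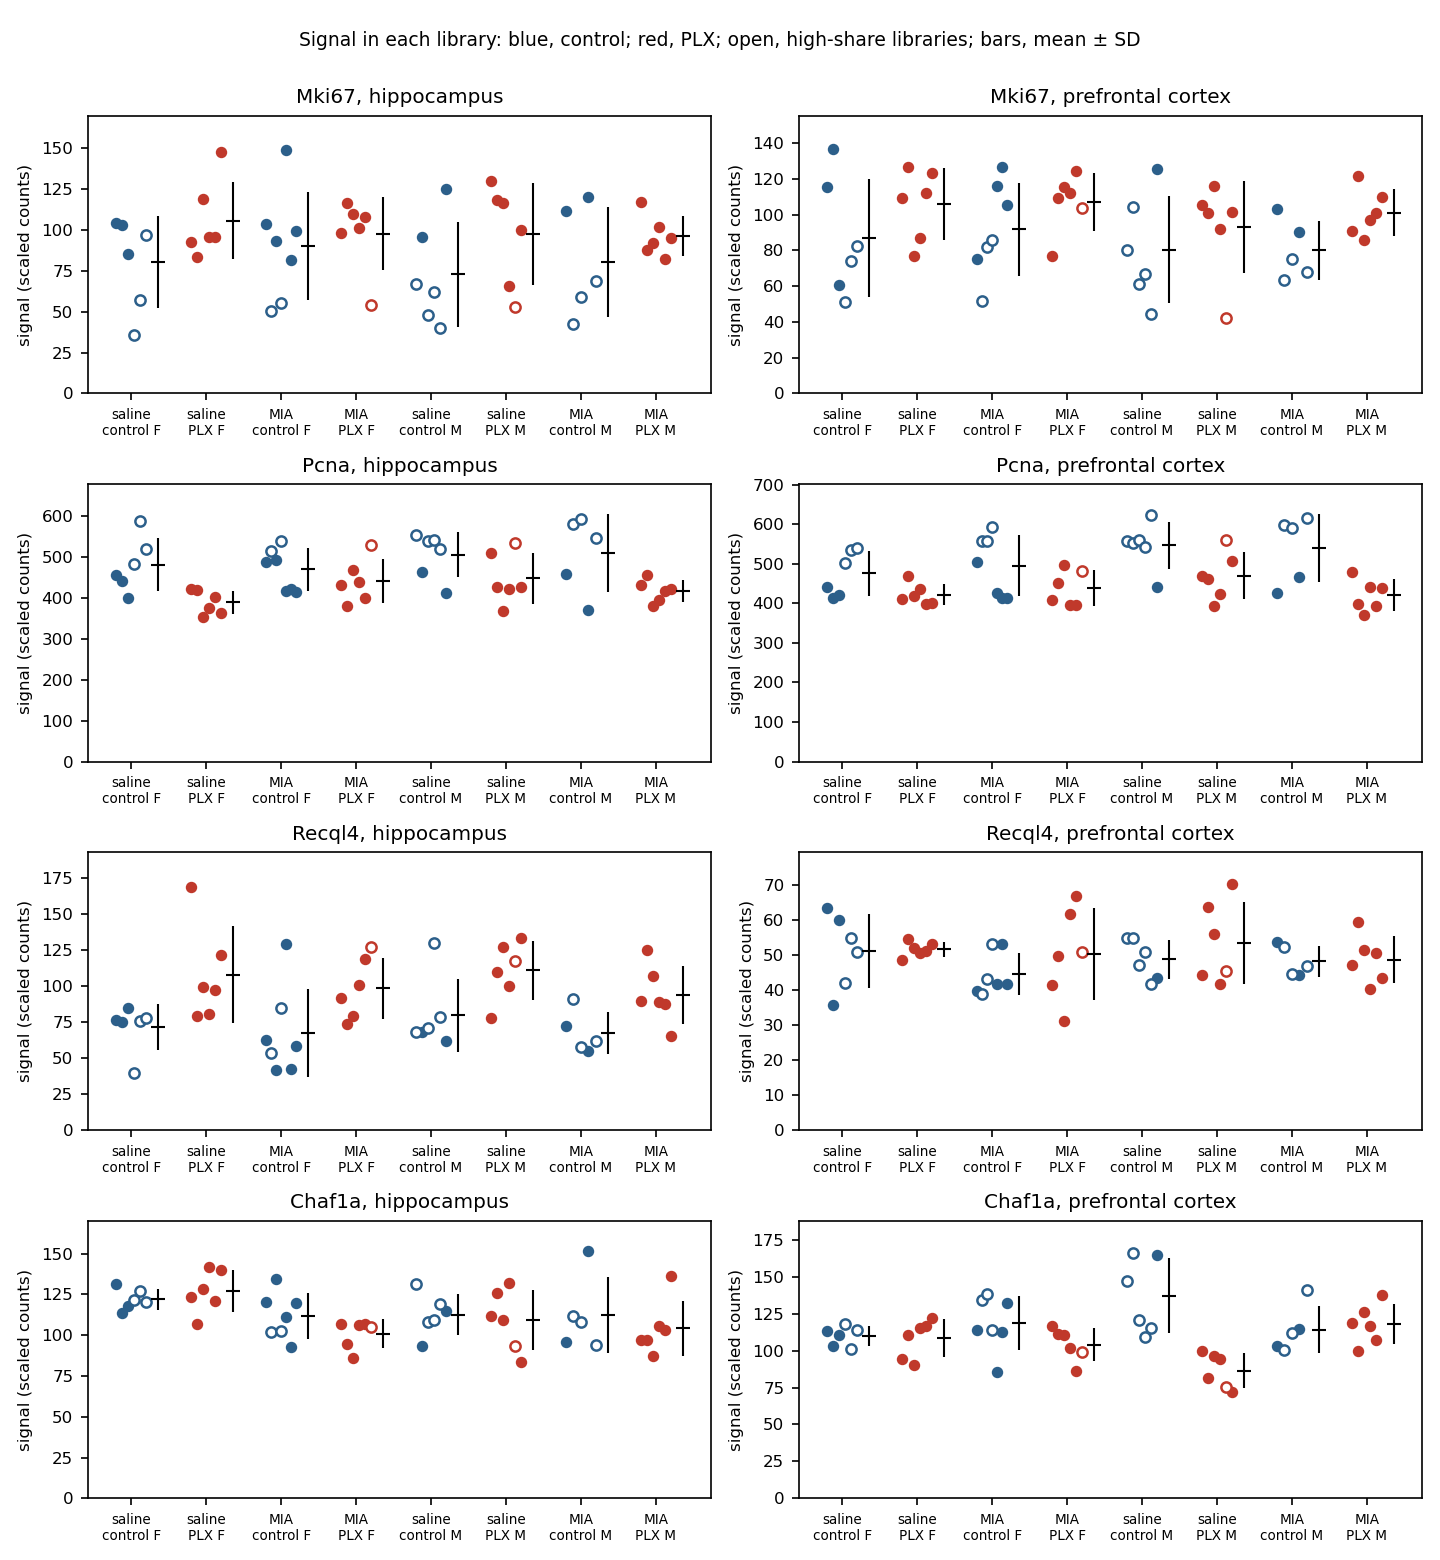
Signal of Mki67, Pcna, Recql4 and Chaf1a in each library by group (blue control, red PLX; open points are high-share libraries; bars give the mean and 1 SD). In Mki67 the open control points lie mostly below the filled ones and in Pcna above them, whereas for Recql4 in hippocampus open and filled control points share 1 range.

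The other hippocampal calls were smaller. Mki67 was higher by 0.35 ± 0.14 (limma adjusted p = 0.0364), Tyms by 0.24 ± 0.07 (limma adjusted p = 0.00481) and Mms22l by 0.19 ± 0.06 (limma adjusted p = 0.0161). Mcm3 was lower by -0.22 ± 0.07, Pcna by -0.21 ± 0.05 (limma adjusted p = 0.00193), Mcm5 by -0.15 ± 0.06 and Ccne1 by -0.14 ± 0.05. Not called were Top2a (0.17 ± 0.13, limma adjusted p = 0.294), Mcm2 (-0.10 ± 0.05, limma adjusted p = 0.0917) and Chaf1a (-0.06 ± 0.06, limma adjusted p = 0.402). Mki67 lost the call without any 1 of 15 labels (highest limma adjusted p = 0.0723) and Mcm5 without any 1 of 13. With edgeR Mki67 was not called (adjusted p = 0.0713), and with DESeq2 neither Mki67 (0.0598) nor Mms22l (0.0504) was.

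In prefrontal cortex the calls were mostly downward. Pcna was lower by -0.22 ± 0.05 (limma adjusted p = 0.00164), Chaf1a by -0.20 ± 0.06 (limma adjusted p = 0.00604), Ccne1 by -0.19 ± 0.05 and Mcm2 by -0.18 ± 0.04 (limma adjusted p = 0.00285). Aurka was lower by -0.28 ± 0.08, Gins2 by -0.26 ± 0.10 and Mcm5 by -0.16 ± 0.06. Mki67 was higher by 0.29 ± 0.11 (limma adjusted p = 0.0371) and Kif11 by 0.17 ± 0.07 (limma adjusted p = 0.0412). Top2a was not called (0.10 ± 0.09, limma adjusted p = 0.428). Licensing and helicase genes gave 3 of 9 down and 0 up here (18.1% of all genes were down) and 2 of 9 down in hippocampus (19.2%), and 0 of 9 with the share term in either tissue. With edgeR Mki67 (adjusted p = 0.0526) and Kif11 (0.0530) were not called, and with DESeq2 Kif11 was not (0.0519). Mki67 lost the call without any 1 of 16 labels, Kif11 of 17, Mcm5 of 5 and Gins2 of 2.

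Levels of Mki67 and Pcna went with the share of these 186 genes. Among hippocampal controls, Mki67 ran from 35.7 to 97.3 (median 56.5) in the 12 high-share libraries and from 81.9 to 149 (median 103) in the other 12. The 2 high-share PLX libraries had 53.0 and 53.9, and the other 22 had 65.9 to 148 (median 101). In prefrontal cortex Mki67 was 44.4 to 104 (median 70.9) in 14 high-share controls and 60.9 to 137 (median 111) in the other 10, beside 76.9 to 127 (median 107) in 22 PLX libraries. The 2 high-share PLX libraries there had 42.4 and 104, so 1 lay below the other 22 and 1 within their range. In both tissues the median of the controls that are not high-share was close to that of the 22 PLX libraries that are not.

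Pcna went the other way. In hippocampal controls it was 483 to 591 (median 540) in high-share libraries and 369 to 493 (median 431) in the rest, beside 354 to 509 (median 419) in the 22 other PLX libraries. The 2 high-share PLX libraries had 528 and 534. In prefrontal cortex the same 3 sets had 501 to 622 (median 558), 413 to 503 (median 427) and 371 to 508 (median 422), and the 2 high-share PLX libraries had 482 and 560. Ccne1, at 288 to 393 (median 331) against 267 to 328 (median 282) in hippocampal controls, also had the higher median in the high-share libraries. Over the 36 members the medians of high-share controls were higher in 22 and lower in 14 in hippocampus, and higher in 19 and lower in 17 in prefrontal cortex. The shift in hippocampus ran from -0.86 (Mki67) to 0.69 (Cdk1) on the log2 scale, and all 36 pairs of ranges overlapped in each tissue. These counts were not taken over all genes, so they are no result about the members as a set.

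With the share term, 1 member was called in hippocampus (Recql4), beside 0.376% of genes, and 0 in prefrontal cortex, beside 0.242%. Unadjusted p was under 0.05 in 4 and 3 members. For the counts at an unadjusted p in this paragraph the share of all genes is not given, so they cannot be called high or low. The percentages here belong to adjusted calls. Without the libraries limma called 0 in either tissue (2 and 4 members at an unadjusted p under 0.05), beside 0.0451% and 0.312% of genes. On the full set edgeR called 7 members in each tissue (39.6% and 37.4% of genes), and DESeq2 6 and 8 (40.5% and 38.4%). Mki67 went to -0.05 ± 0.10 with the term in hippocampus and -0.01 ± 0.11 in prefrontal cortex, and Pcna to -0.07 ± 0.04 and -0.05 ± 0.04. Chaf1a in prefrontal cortex stayed at -0.20 ± 0.07 (limma adjusted p = 0.219) and Mcm2 at -0.16 ± 0.05 (limma adjusted p = 0.219). Leaving the libraries out kept 1 saline control male in prefrontal cortex, which the fit assumes to vary like the other groups.

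**Figure D3:**
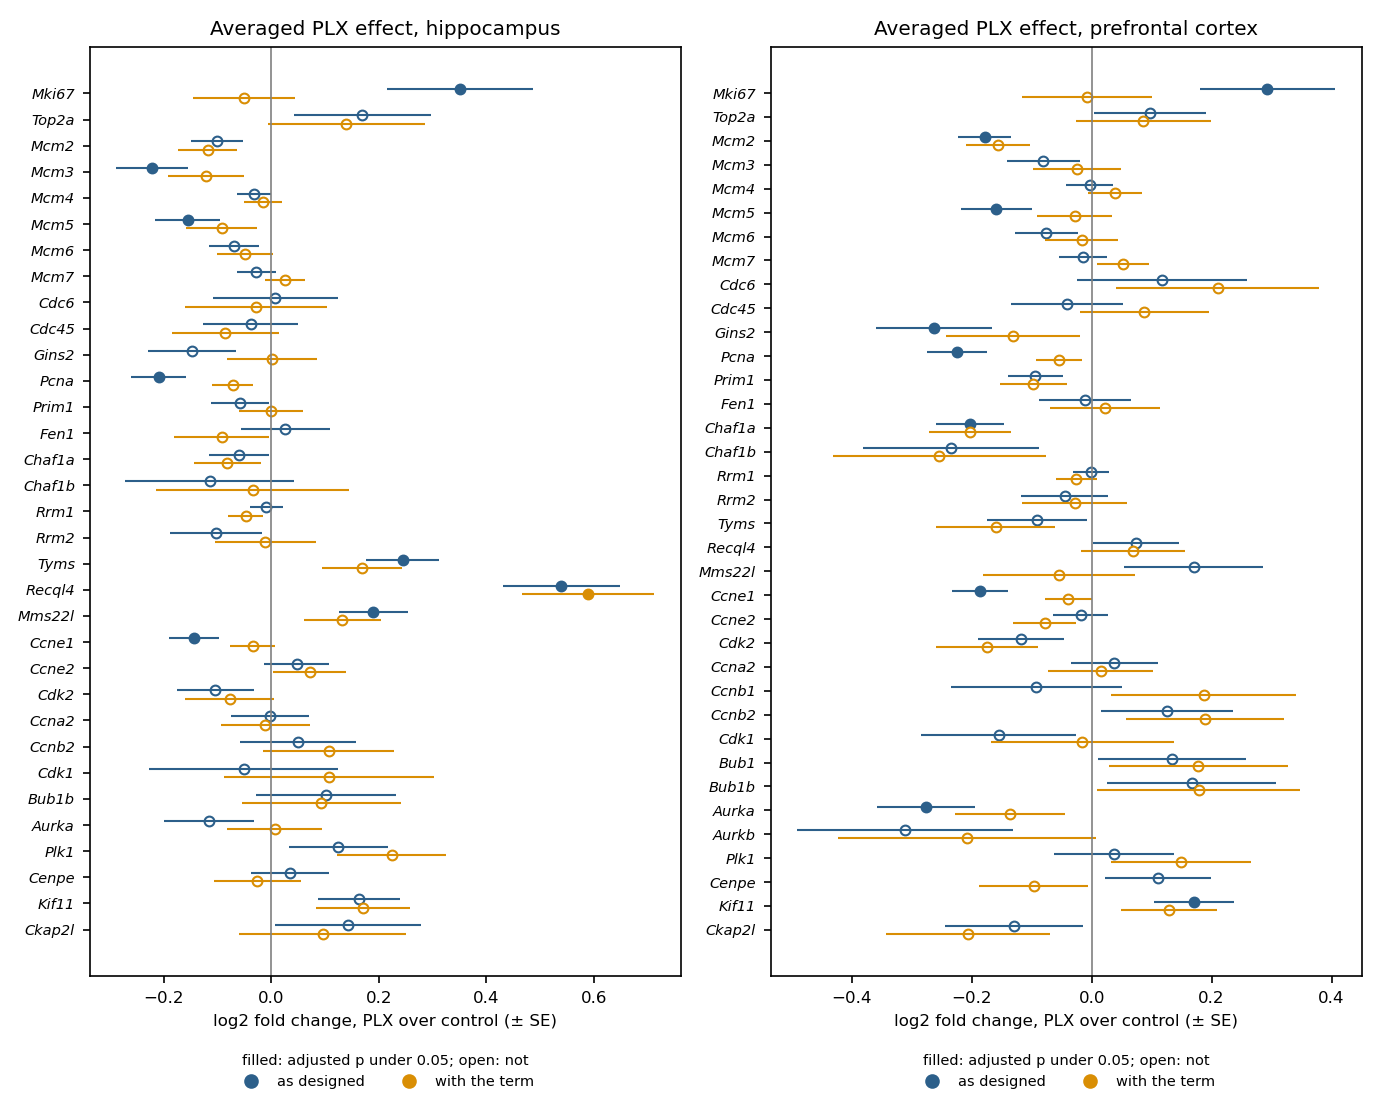
Averaged log2 effect of PLX on each member in hippocampus and prefrontal cortex (points, with bars of 1 standard error), as designed and with the share term. With the term Mki67, Pcna and Ccne1 move towards 0, while Recql4 in hippocampus (still called) and Chaf1a in prefrontal cortex (no longer called, adjusted p = 0.219) stay near their values.

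Cell cycle genes outside the members were called in both directions as well. In hippocampus 18 of 107 were higher and 16 lower with PLX, beside 20.8% of all genes higher and 19.2% lower. In prefrontal cortex 19 and 16 of 114 were, beside 19.7% and 18.1%. Such counts are thus no result about these genes as a set. With the term limma called 0 in both, beside 0.376% and 0.242% of all genes. The same shares of all genes stand beside the marker counts below. At an unadjusted p under 0.05 the counts were 14 and 15, again without the share of all genes. Those with the smallest p in hippocampus were the checkpoint gene Bub3 (-0.15), Rpa1 (-0.12), the E2F partner Tfdp2 (0.17), the fork protection gene Tipin (-0.24) and the chromosome motor Kif22 (0.27). In prefrontal cortex they were cyclin D1, Ccnd1 (0.22), Tipin (-0.26), the pocket protein Rbl2 (0.19), the spindle gene Nusap1 (0.24) and the clamp loader subunit Rfc2 (-0.17). Microglial markers were lower with PLX in 8 of 10 genes in hippocampus, where they summed to 8255 to 12467 in controls (median 9297) and 7725 to 9439 with PLX (median 8361), and in 9 of 10 in prefrontal cortex (8924 to 11892, median 9880, and 7861 to 9489, median 8702). With the term 3 and 6 of the 10 were lower. Oligodendrocyte precursor genes were higher in 2 of 8 in hippocampus and 3 of 8 in prefrontal cortex, and 0 with the term. Their part in the members' changes was not tested.

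Of the 8 comparisons of PLX with control within a sex, prenatal treatment and tissue, 1 called a member. In saline males Chaf1a fell with PLX in prefrontal cortex. Its signal was 109 to 166 (median 134) in the 6 controls and 72.0 to 99.9 (median 87.8) in the 6 PLX libraries, with no overlap. The log2 fold change was -0.65 ± 0.11 (limma adjusted p = 0.00392), and 1 of 36 members was called beside 0.338% of all genes. With the term it was the same (-0.65, limma adjusted p = 0.0112). With the high-share libraries left out it was -0.90 ± 0.20 (limma adjusted p = 0.157), with 1 control left. Leaving out each library in turn gave -0.71 to -0.59, called each time. In edgeR it was -0.67 (adjusted p = 0.00334), and DESeq2 gave -0.66 with no adjusted p. The overlapping gene Ubxn6 differed by -0.05 ± 0.09.

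In the other 3 pairs in prefrontal cortex the ranges of Chaf1a overlapped. Saline females had 101 to 118 (median 112) and with PLX 90.4 to 122 (median 113), a difference of -0.03 ± 0.11. MIA females had 85.4 to 138 (median 114) and with PLX 86.1 to 116 (median 106), a difference of -0.18 ± 0.11. MIA control males had 103, 100, 112, 115 and 141, and the PLX males 99.9 to 138 (median 118), a difference of 0.05 ± 0.12. MIA by PLX, averaged over sexes, was 0.28 ± 0.11 and did not pass (limma adjusted p = 0.887). PLX by sex, averaged over prenatal treatments, was 0.20 ± 0.11 and did not pass either (limma adjusted p = 0.823). A difference in the PLX effect between saline males and MIA males alone was not tested. MIA by sex (0.35 ± 0.16, not called) used control libraries only, so it does not bear on the PLX effect. Under PLX, MIA males minus saline males was 0.44 ± 0.11 (limma adjusted p = 1.00), which did not pass although the ranges did not overlap. This comparison and the one above share the saline PLX males. In hippocampus of saline males the 2 ranges of Chaf1a overlapped (93.4 to 131 in controls and 83.5 to 132 with PLX).

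**Figure D4:**
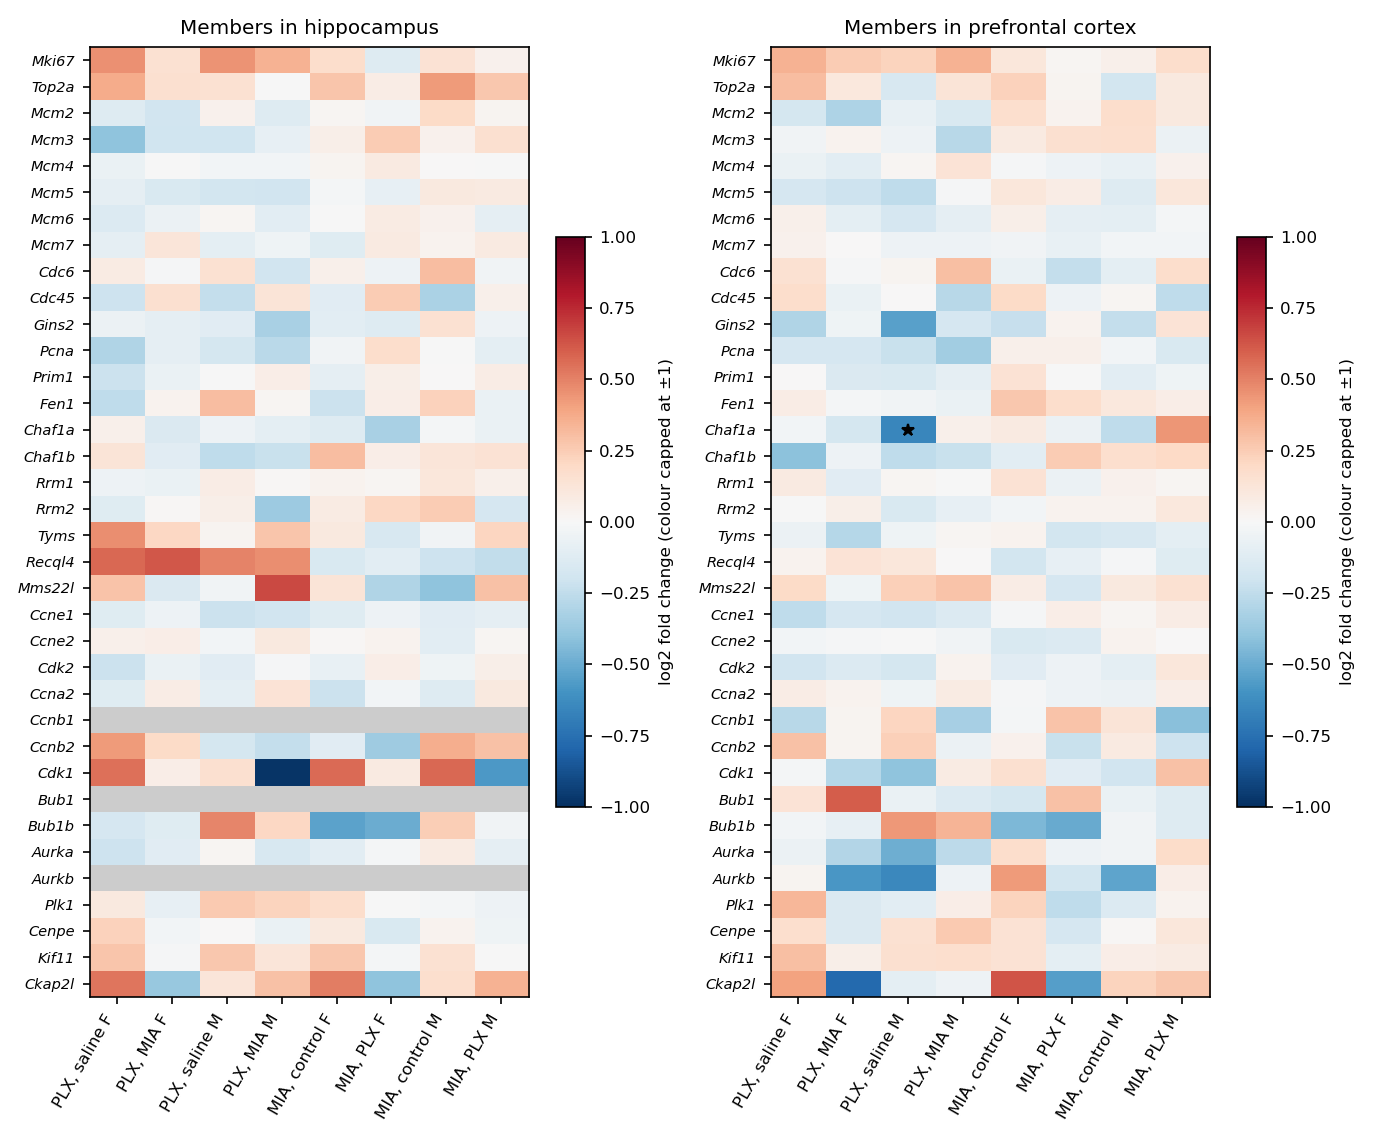
Log2 difference of each member in the 8 comparisons of 2 groups in each tissue (colour, limited to 1 in either direction; grey marks members that were not tested; a star marks an adjusted p under 0.05). The 1 star is Chaf1a in prefrontal cortex of saline males with PLX.

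In the remaining PLX pairs limma called 0 members, and edgeR 0. DESeq2 called 0 as well, except that it gave no adjusted p for the members in hippocampus of MIA males. In hippocampus, counts at an unadjusted p under 0.05 were 5 of 33 in saline females (22.7% of all genes), 2 in MIA females (7.71%), 2 in saline males (20.2%) and 5 in MIA males (28.2%). Genes called were 0.0301%, 0.00502%, 0.0251% and 0.00502% of all. The smallest p in saline females belonged to Tyms (0.47 ± 0.14, limma adjusted p = 0.159) and Mcm3 (-0.40 ± 0.13), in MIA females to Recql4 (0.62 ± 0.21) and Mcm2 (-0.19), and in saline males to Recql4 (0.50 ± 0.22) and Ccne1 (-0.21). In MIA males it belonged to Mms22l and Cdk1. Mms22l had 26.1, 25.3, 19.6, 25.9 and 20.1 in the 5 controls and 28.7 to 44.4 (median 37.2) with PLX, without overlap (0.66 ± 0.13, limma adjusted p = 0.0935). It passed without control 2 (limma adjusted p = 0.0255), control 5 (0.0350) or PLX 4 (0.0204), and with the term it was 0.58 (limma adjusted p = 0.514). Cdk1 had 8.35, 9.72, 14.9, 11.4 and 14.6 in controls and 3.96 to 7.85 (median 5.49) with PLX, also without overlap (-0.98 ± 0.37, limma adjusted p = 0.101). It reached a signal of 10 in only 15 of 48 hippocampal libraries, so its differences in hippocampus rest on low values.

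In prefrontal cortex, counts at an unadjusted p under 0.05 were 2 of 36 in saline females (17.8% of genes), 3 in MIA females (7.59%), 6 in saline males (27.8%) and 2 in MIA males (24.9%). Genes called were 0.0252% of all in both female pairs and 0.0202% in MIA males. In MIA females Mcm2 ran from 114 to 151 (median 127) in controls and from 98.4 to 111 (median 104) with PLX, without overlap, but did not pass (-0.31 ± 0.09, limma adjusted p = 0.292). Ckap2l had 17.2 to 36.9 (median 25.6) and with PLX 10.1 to 21.3 (median 13.5), a difference of -0.78 ± 0.22 (limma adjusted p = 0.325). In saline females the smallest p belonged to Ccne1 (-0.25) and Kif11 (0.30), and in MIA males to Pcna (-0.35 ± 0.10, limma adjusted p = 0.141) and Mcm3 (-0.27). Pcna in MIA males had 427, 597, 590, 465 and 615 in controls and 371 to 479 (median 418) with PLX, and passed without control 2 (limma adjusted p = 0.0463) or control 5 (0.0466). Those 2 are the controls of that group that are not high-share, and their Pcna was the lowest of the 5.

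MIA against saline called no member in any comparison. Averaged over sex and inhibitor limma called 0 of 33 in hippocampus and 0 of 36 in prefrontal cortex, beside 0% of all genes in each, and edgeR and DESeq2 also called 0. Unadjusted p was under 0.05 in 2 members in each tissue, beside 4.76% and 5.96% of genes. In hippocampus these were Chaf1a (-0.13 ± 0.06, limma adjusted p = 0.922) and Top2a (0.26 ± 0.13). Mcm2 (0.05), Mki67 (0.06 ± 0.14) and Recql4 (-0.18 ± 0.11) were not called either. In prefrontal cortex they were Mcm2 (0.12 ± 0.04, limma adjusted p = 0.772) and Fen1 (0.15 ± 0.08), with Mki67 at 0.09 ± 0.11, Top2a at 0.05, Chaf1a at 0.06 and Recql4 at -0.10.

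Single MIA pairs gave 0 calls with limma and edgeR, beside 0.00502% of genes called in control females in hippocampus and 0% in the others. At an unadjusted p under 0.05 hippocampus had 1 member in control females (6.41% of genes), 1 in control males (2.38%), 2 in PLX females (2.74%) and 1 in PLX males (2.47%). Prefrontal cortex had 2 in control females (5%) and 1 each in control males (2.56%), PLX females (5.35%) and PLX males (2.89%). DESeq2 called 0 too, without an adjusted p for 3 members in that 1 comparison. In hippocampus of control males Mms22l was at 19.6 to 26.1 with MIA and 26.6 to 38.6 with saline, without overlap (-0.41 ± 0.13, limma adjusted p = 1.00). In the same pair Mcm2 was at 120 to 142 with MIA and 101 to 118 with saline (0.19 ± 0.10). Under PLX, MIA females had hippocampal Chaf1a of 85.9 to 107 and saline females of 107 to 142 (-0.33 ± 0.11, limma adjusted p = 0.998), and Mms22l differed by -0.30. In MIA males under PLX the smallest p belonged to Mms22l (0.30) and Cdk1 (-0.57) in hippocampus. Control females had theirs at Bub1b (-0.54 ± 0.25) and Ckap2l (0.51) in hippocampus and at Ckap2l (0.63 ± 0.22) and Rrm1 (0.14) in prefrontal cortex. In prefrontal cortex control males gave Chaf1a (-0.25) and Mcm2 (0.17), PLX females Ckap2l (-0.55) and Bub1b (-0.50), and PLX males Chaf1a, given above, and Pcna (-0.16). Ckap2l and Mms22l each recur with both signs in comparisons that share groups.

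Sex differences did not pass either. With 0 of 33 members called in hippocampus and 0 of 36 in prefrontal cortex by limma, edgeR and DESeq2 (0.246% and 0.141% of all genes with limma), 2 and 3 members had an unadjusted p under 0.05, beside 7.85% and 6.05% of genes. In hippocampus Ccnb2 in females minus males was at -0.36 ± 0.11 (limma adjusted p = 0.209). This is an average over prenatal treatment and inhibitor, and only the MIA controls are shown for it. Among these, females were at 8.79 to 22.9 (median 14.2) and males at 23.0, 25.3, 24.2, 23.8 and 43.0. The other pairs of groups need not separate in this way, and PLX by sex for Ccnb2 is given below. Mcm7 differed by -0.07, Mki67 by 0.13 ± 0.14, Mcm2 by 0.04, Chaf1a by 0.08, Recql4 by -0.06 and Top2a by 0.00. In prefrontal cortex Mcm6 was at 0.18 ± 0.05 in females minus males (limma adjusted p = 0.345) and Cdk1 at -0.28 ± 0.13, with Mki67 at 0.14, Top2a at 0.06, Mcm2 at 0.03, Chaf1a at -0.02 and Recql4 at -0.02.

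Tests of a difference between effects called 0 members in limma, edgeR and DESeq2, beside 0% of all genes. For MIA by PLX the smallest p in hippocampus belonged to Cdk1 (-0.81 ± 0.35) and Cdc45 (0.37) and in prefrontal cortex to Ckap2l (-0.57 ± 0.23) and Chaf1a. For PLX by sex they were Ccnb2 (0.51 ± 0.21) and Cdk1 (0.72) in hippocampus and Mcm4 (-0.16) and Bub1 (0.47) in prefrontal cortex. For MIA by sex, in control libraries only, they were Mms22l (0.54 ± 0.18) and Bub1b (-0.78) in hippocampus and Chaf1a and Prim1 (0.25) in prefrontal cortex. Between tissues the PLX effect differed most, by p, in Recql4 and Tyms (0.34 ± 0.11, limma adjusted p = 1.00), and the MIA effect in Chaf1a (-0.19 ± 0.08) and Ccne1 (-0.13). The other named genes differed between tissues in the PLX effect by 0.14 (Chaf1a), 0.08 (Mcm2), 0.06 (Mki67) and 0.07 (Top2a), and in the MIA effect by -0.07 (Mcm2), -0.03 (Mki67), -0.08 (Recql4) and 0.22 (Top2a). Unadjusted p was under 0.05 in 2 members for each of the 3 hippocampal tests, beside 2.04% of genes for MIA by PLX, 4.94% for PLX by sex and 3.67% for MIA by sex. In prefrontal cortex it was so in 2 (4.98% of genes), 1 (4.54%) and 1 (2.04%), and between tissues in 3 for PLX (2.67%) and 1 for MIA (2.13%).

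Members that vary with Mki67 from library to library were looked for within tissues, after centring on group means, with the high-share libraries and the rest taken separately. Groups with 1 library in a set were left out, which leaves 12 high-share and 34 other libraries in hippocampus, and 14 and 31 in prefrontal cortex. All high-share libraries kept are controls. Each of the 4 sets gave 35 relations, tested by 100000 permutations. The permutations ran over all libraries of a set, as if the centring on group means left them independent. The p-values therefore tend to be too small, and a relation that passed is a description of these libraries. In prefrontal cortex Top2a followed Mki67 in both sets. Its r was 0.729 and rho 0.761 over 31 libraries (permutation p = 1e-05 for each, the smallest possible; adjusted p = 0.00035), and 0.644 without the 2 libraries farthest from the median of Mki67. In the 14 high-share controls it was 0.883 (rho 0.895, permutation adjusted p = 0.000875), and 0.884 without 2. Kif11, Aurkb, Bub1 and Mcm3 also passed positively in the 31 libraries (r 0.468 to 0.674) and Fen1 negatively (-0.527). Without 2 libraries r was 0.398 to 0.526 for those 4 and -0.406 for Fen1, with permutation adjusted p of 0.0630 to 0.147. In the 14, Mcm3, Ckap2l, Recql4, Gins2 and Ccnb1 passed with r of 0.731 to 0.863, also without 2, and Bub1b was at -0.743.

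In hippocampus, over 34 libraries 1 relation passed, Mms22l (r 0.573, rho 0.499, permutation adjusted p = 0.0115; 0.433 without 2 libraries, adjusted p = 0.363), and Top2a was at 0.315 (rho 0.114, permutation adjusted p = 0.288). In the 12 high-share controls 7 passed (Kif11 0.885, Top2a 0.818, Aurkb 0.790, Rrm2 0.762, Ccna2 0.758, Cdk2 0.752 and Plk1 0.705), and 0 passed over the 10 libraries left without 2. There r was 0.779 for Aurkb and 0.753 for Rrm2 (permutation adjusted p = 0.148 for each), 0.665 to 0.680 for Kif11, Ccna2 and Cdk2, 0.613 for Top2a and 0.487 for Plk1. The difference between tissues was not tested. The median r over the 35 genes was 0.08 and 0.30 in the 2 hippocampal sets and 0.06 and 0.20 in the cortical ones. Libraries of a set share depth and scaling. The spread of immature neuron genes between cortical libraries was not taken into account.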

How the data were processed

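The members, the other gene lists and the tests were chosen with earlier results of these data known. RNA was measured in 96 libraries, and per the submitters' processing notes the authors used Trimmomatic, STAR 2.6.1d and GRCm39. The counting tool, scaling method and use of strand were not given in the sources used here. Values in the deposited table are a signal, that is a normalized count. Dividing out 1 factor per library gave whole reads in all 96 columns (tolerance 0.01; in 21 the factor was near 1), for 100% of values. Depth was 22.2 M to 26.7 M reads, and counting error is largest in relative terms for low signals. No column was left out, and 0 columns belonged to no sample.

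Signal was analysed as log2(signal + 1) with limma 3.58.1 in R 4.3.3 (1 mean per group, trended variance), by tissue and jointly, for genes that reached a signal of 10 in 5 or more libraries. P-values were adjusted by the Benjamini-Hochberg method over all genes tested, with calls at 0.05. Groups came from the labels. A split in 2 of the share of signal in 186 ribosomal protein and oxidative phosphorylation genes defined the high-share libraries. Alternatives were pseudocounts of 0.5 and 5, no filter and a stricter filter (signal of 20), edgeR 4.0.16 and DESeq2 1.42.0 on whole reads, upper-quartile rescaling, a replicate block, a covariate for high-share libraries (share term), and leaving out these libraries or each label in turn. Scripts were tested on simulated data, which for the correlations held no groups. Named were the members called in a comparison, or else the 2 with the smallest p, and Mki67, Top2a, Mcm2, Chaf1a and Recql4 in averaged and tissue comparisons. In the tissue comparison the 10 largest differences in each direction, and of other pathway genes at most 5 called ones, were named. Lengths came from the GENCODE M21 annotation, promoters from RefSeq.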

Additional observations from a re-analysis of the deposited data

Results flagged for a closer look

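Of 128 sets of 1 gene in 1 group (8 genes in 16 groups), 8 held a library far from the others by Dixon's criterion, which chance gives in about 1 in 20 groups. Mki67 was 53.9 in PLX female 6 with MIA in hippocampus, where the other libraries had 97.9 to 117, and 42.4 in saline PLX male 5 in prefrontal cortex (others 92.2 to 116). Both are high-share libraries. Ccne1 was 366 in saline PLX male 5 in hippocampus (others 245 to 286), also a high-share library.

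Top2a in hippocampus was 58.6 in MIA control male 6, a high-share library (others 40.7 to 45.6), and 90.1 in saline PLX female 6, which is not (others 29.6 to 44.5). Mcm2 in hippocampus was 176 in MIA control female 3, not a high-share library (others 107 to 135). Recql4 in hippocampus was 39.6 in saline control female 4 (others 75.3 to 84.6) and 130 in saline control male 4 (others 62.2 to 78.9), both high-share libraries, 1 low and 1 high.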

How the results depend on the processing

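Of 31 counts of called members (14 comparisons in each tissue and 3 jointly), pseudocounts, filters, edgeR and upper-quartile rescaling moved none by over 1.5 times; DESeq2 moved none of the 28 it could give, since it had no adjusted p for 33 of 33 members in hippocampal PLX in MIA males, 29 of 36 in cortical PLX in saline males and 3 of 33 in hippocampal MIA in control females. Most of the 31 counts were 0 in the main fit. A change within 1.5 times, as in the averaged PLX counts with edgeR and DESeq2, was not counted as a move. In cortical PLX in saline males DESeq2 called 1344 genes, edgeR 71 and limma 67. With the share term the averaged PLX count was 1 in hippocampus and 0 in prefrontal cortex, and without the high-share libraries 0 and 0, with 0 also for cortical PLX in saline males. Without 1 library at a time the count for hippocampal PLX in MIA males ran from 0 to 2 (highest without control 2 or 5, and 1 without PLX 4), for cortical PLX in saline males from 1 to 5 (5 without control 6, 3 without PLX 5) and for cortical PLX in MIA males from 0 to 1 (1 without control 2 or 5).

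Some named genes changed sign. With the term Mki67 was at -0.051 for PLX in hippocampus and -0.0082 in prefrontal cortex, -0.0071 for MIA in hippocampus, 0.0062 for hippocampus minus prefrontal cortex and -0.042 for the tissue difference in PLX, and Top2a at -0.0037 for sex in hippocampus. Without the high-share libraries Mki67 was at -0.055 and -0.030 for PLX in the 2 tissues, -0.078 for MIA in prefrontal cortex, -0.044 and -0.034 for sex, -0.025 for the tissue difference in PLX and 0.099 for that in MIA. In the same setting Recql4 was at 0.042 and 0.0082 for sex in hippocampus and prefrontal cortex, Mcm5 at 0.030 for PLX in prefrontal cortex, Top2a at -0.10 and Chaf1a at -0.056 for MIA in prefrontal cortex, and Mcm2 at -0.020 for sex in prefrontal cortex and 0.0014 for the tissue difference in MIA. Over single libraries left out, Top2a for sex in hippocampus ran from -0.048 to 0.045, Recql4 for sex in prefrontal cortex from -0.041 to 0.013, Chaf1a between tissues from -0.0020 to 0.028 and Mki67 for the tissue difference in MIA from -0.062 to 0.0076. The cause of these moves was not tested.

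With the replicate block, 8 members were called for PLX in each tissue, 1 for cortical PLX in saline males and 34 between tissues, where labels were paired (consensus correlation 0.376). The 3 gained there were Pcna (limma adjusted p = 0.0429), Plk1 (0.0349) and Bub1b (0.0293). Libraries of 1 label correlated across tissues with a median r of 0.212, above 0.1 in 38 of 48, and 38 of 48 hippocampal libraries correlated best with their own label, a hint from the data and not the design. Depth limits genes with a signal under 10, such as Bub1, Aurkb and Chaf1b, and in hippocampus Ccnb1 and Cdk1.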
